A study of Mus musculus with 14 samples.

Results

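The genes described here encode the proteins of the cytosolic ribosome. They are the 86 rows of the count table, of 24833 in all, whose symbol starts with Rpl or Rps and a digit or is Rplp0, Rplp1, Rplp2 or Rpsa, and that had at least 10 counts in at least 3 libraries. Rps6k kinases, symbols with "-ps" (pseudogenes) and symbols with "rt" were left out by name. No measured change with treatment entered that rule, though the genes were chosen with earlier results of these data known. Of the 88 rows that fitted the name rule, Rpl3l, with 68 counts in all, and Rps12l2, with 14, missed the count minimum. The remaining 86 all passed the separate filter for testing. Among them, 77 encode a core protein of the ribosome, 46 of the large subunit and 31 of the small subunit. The other 9 are the paralogs Rpl7l1, Rpl22l1, Rpl36al, Rpl39l and Rps27l, the processed gene copies Rps3a2, Rps3a3 and Rps4l, and Rps19bp1, which encodes a nucleolar protein that binds Rps19.

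The RNA came from SLAM cells, a fraction enriched for hematopoietic stem cells (lineage-negative Sca-1+ Kit+ cells that were Flk2-, CD48- and CD150+) sorted from the bone marrow of C57BL/6 mice. Mice received IL-1β, an inflammatory cytokine, or phosphate-buffered saline (PBS) by intraperitoneal injection for 1 or 20 days. The IL-1β dose was 0.5 µg per mouse per day, and each library came from a pool of 3 to 5 mice. There were 3 libraries per treatment at 1 day and 4 at 20 days, 14 in all, with 21654896 to 29441947 counts each. No genotype, age or sex is given in the labels used here. The sample titles fall into naming sets: titles with "10k" (1 PBS and 1 IL-1β library at 1 day, here replicate 3), with E060216 (2 of each at 1 day, replicates 1 and 2), with E061316 (2 of each at 20 days, replicates 1 and 2), and titles with neither tag (2 of each at 20 days, replicates 3 and 4, called untagged below). What these tags stand for is not stated, and every naming set holds a single duration. The set is therefore a term in the comparisons of treatment, and duration and set cannot be told apart in the comparison of the durations.

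Most ribosomal proteins are present in a single copy per ribosome, and their genes, scattered over the genome, are usually expressed in parallel. Their mRNAs start with a cytosine followed by a run of pyrimidines, the 5′ terminal oligopyrimidine (TOP) motif. Through this motif, mTORC1 and the RNA-binding protein LARP1 set how strongly these mRNAs are translated and how stable they are. Hematopoietic stem cells keep a low rate of protein synthesis, and heterozygous loss of single ribosomal protein genes causes Diamond-Blackfan anemia, a failure of red cell production.

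Pyrimidine runs at the annotated start site were more frequent among these genes than among all genes, and most core genes had none of 8 bases there. RefSeq promoters on GRCm38.p6 were matched for 63 of the 86 genes and 57 of the 77 core genes. A run of 8 or more C or T on the transcribed strand lay within 15 bases of the start site in 25 of 57 core genes (43.9%), against 13.9% of 27025 genes in the promoter table. A run of 8 or more A or G in the same window was present in 5.26% of the core genes and 15.3% of all genes. Over the wider window of 50 bases on each side, the C or T run was found in 84.2% of core genes and 39.3% of all genes. The following 30-base windows, from 15 bases before the start site to 15 after it, are those of 4 core genes, of 2 paralog pairs whose balance is described below (Rps27 with Rps27l and Rpl22 with Rpl22l1), of the paralog Rpl36al and of Rps19bp1. Capitals mark the longest run of C or T in each window.

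Rpl4 (chr9:64173372-64173401, plus strand): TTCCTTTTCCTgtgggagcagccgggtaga
Rplp0 (chr5:115559452-115559481, plus strand): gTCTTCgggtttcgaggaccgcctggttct
Rpl13 (chr8:123102335-123102364, plus strand): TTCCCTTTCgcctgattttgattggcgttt
Rpl38 (chr11:114668565-114668594, plus strand): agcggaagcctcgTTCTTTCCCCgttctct
Rps27 (chr3:90213634-90213663, minus strand): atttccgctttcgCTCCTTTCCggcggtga
Rps27l (chr9:66946071-66946100, plus strand): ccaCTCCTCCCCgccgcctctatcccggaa
Rpl22 (chr4:152325711-152325740, plus strand): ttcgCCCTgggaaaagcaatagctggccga
Rpl22l1 (chr3:28805493-28805522, plus strand): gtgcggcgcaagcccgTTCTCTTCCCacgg
Rpl36al (chr12:69184053-69184082, minus strand): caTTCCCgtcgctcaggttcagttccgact
Rps19bp1 (chr15:80264292-80264321, minus strand): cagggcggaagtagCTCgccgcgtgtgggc

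In these windows the longest run was 11 bases in Rpl4, 10 in Rpl38 and Rpl22l1, and 9 in Rpl13, Rps27 and Rps27l. It was 5 in Rplp0 and Rpl36al, 4 in Rpl22 and 3 in Rps19bp1. The runs lie on either side of the RefSeq start, which is a single annotated base. Among short words searched on both strands of the whole 300-base promoter, CCGGAAG, the core of an ETS-family site, was present in 42.1% of core genes and 9.93% of all genes. The letters AAGATGGC, a YY1-type word, were present in 8.77% and 3.19%, CACGTG, the E-box bound by Myc, in 10.5% and 8.09%, and TATAAA in 10.5% and 15.7%. CCGGAAG was the most frequent of these words among the core genes, and TATAAA the only one less frequent there than among all genes. A match describes letters and not binding.

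Per kilobase of transcript, the core genes had a median level of 336 CPM (counts scaled to the library total and by the trimmed mean of M values, TMM), averaged over the 14 libraries. The highest levels per kilobase were 1625 for Rpl32, 1319 for Rpl13, 1057 for Rps14, 967 for Rpl4 and 885 for Rps9. The lowest was 0.931 for Rpl24, a large-subunit protein, followed by 32 for Rps15a, 48.1 for Rpl23a and 77.3 for Rps20. These low values stand beside features of the annotation. For Rpl24, 71.5% of the exon bases overlap another gene, Gm28037, and 80.1% of its 100-base stretches also occur in transcripts of other genes. Rpl23a overlaps Tlcd1 over 55.4% of its exon bases, and the transcripts used for Rps15a and Rps20 are 5130 and 3706 bases long against a median of 761 over the core genes. Shared sequence is common in this family: at least 50% of the 100-base stretches recur in other genes for 34 of the 77 core genes. How the authors treated reads that match several places or overlapping genes is not given in the sources used here, so levels of single genes are uncertain. The strand setting of the counting is not given either, so overlapping antisense reads may not have been told apart.

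The core genes moved together from library to library. Pearson's correlation of a core gene with the mean of the other core genes over the 14 libraries had a median of 0.95, and 67 of 77 exceeded 0.9; the points share libraries and scaling, and the value is a description. The lowest among the core were Rpl24 at 0.31, Rps27 at 0.75 and Rpl4 at 0.78. Outside the core, the ribosome biogenesis factor Rpl7l1 had 0.27, Rps4l 0.55, Rpl22l1 0.58 and Rps19bp1 0.73, and Rpl39l, known from testis, had -0.60 at 0.275 CPM on average.

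The share of all counts that fell on the 77 core genes differed between libraries more than between treatments. In the PBS libraries at 1 day it was 2.53%, 2.25% and 3.06%, and in the IL-1β libraries 2.43%, 2.25% and 3.08%, for replicates 1, 2 and 3. At 20 days it was 2.29%, 2.47%, 2.68% and 3.56% with PBS, and 2.45%, 2.61%, 2.37% and 2.31% with IL-1β, for replicates 1 to 4. PBS replicate 4 at 20 days and both 10k libraries, one from each treatment, were the highest. The median core gene lay 0.47 above its own 14-library mean on the log2 scale in PBS replicate 4 at 20 days, with 77 of 77 above it. It lay 0.33 and 0.31 above in the 10k libraries and between -0.23 and 0.06 in the other 11. That PBS library was the highest of the 14 for 69 of the 86 genes.

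**Figure D1:**
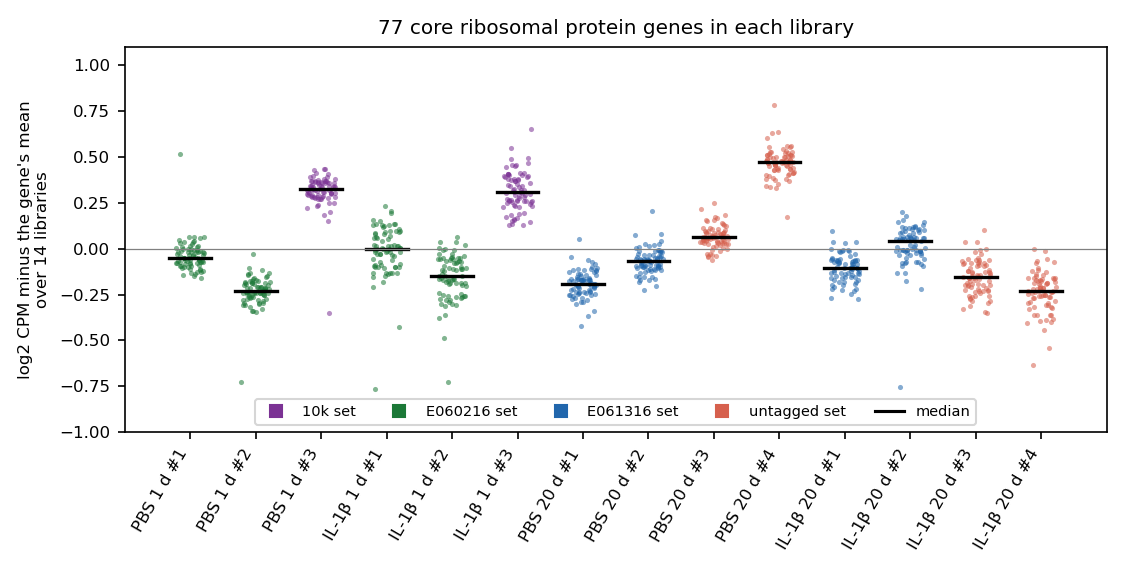
Each point is 1 of the 77 core ribosomal protein genes; the vertical axis is log2 CPM minus the gene's mean over the 14 libraries, the horizontal axis the libraries, colours the naming sets and black bars the medians (3 points of low genes lie outside the axis). PBS replicate 4 at 20 days stands highest with a median of 0.47, and the 10k libraries of both treatments follow.

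Both subunits took part in these differences. The ratio of large-subunit to small-subunit counts ranged from 1.41 to 1.501 over the 14 libraries and was lowest in PBS replicate 4 at 20 days. Transcript length moved with the same libraries. In PBS replicate 4 at 20 days the shortest decile of the other genes (median length 567 bases) had a median deviation of 0.35 and the longest decile (6615 bases) one of -0.18. In the 10k libraries the shortest decile was at 0.11 and 0.19 and the longest at -0.18 and -0.16. The list of 29 short nuclear genes of the respiratory chain was at 0.36 in PBS replicate 4 at 20 days and at 0.33 and 0.54 in the 10k libraries. The part of length in the ribosomal protein values was not tested. In both untagged IL-1β libraries the core genes were at -0.15 and -0.23 while the shortest decile was at 0.10 and 0.02 and the short respiratory chain genes at -0.28 and -0.42.

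**Figure D2:**
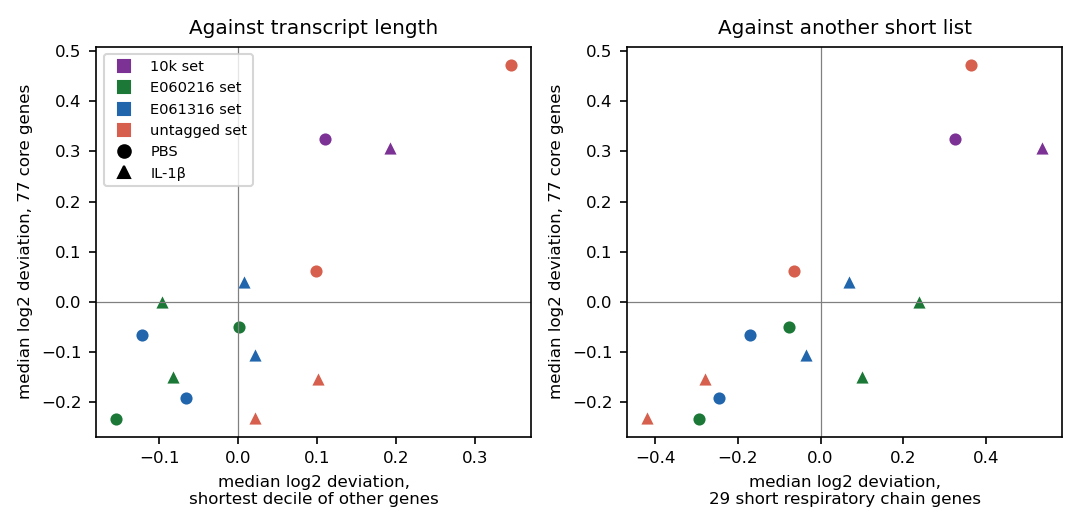
Each point is a library; the vertical axes give the median log2 deviation of the 77 core genes and the horizontal axes that of the shortest decile of other genes (left) and of 29 short respiratory chain genes (right). PBS replicate 4 at 20 days lies at the upper right in both panels, at 0.47 against 0.35 and 0.36.

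Kit, Ly6a and Slamf1, which encode proteins of the sort, were summed with Procr, which is not in the gate given above. Their summed level was 836 to 1945 CPM over the libraries, here without TMM scaling. The summed level of 13 neutrophil markers was 2427 in IL-1β replicate 3 at 20 days and at most 14.9 in the other 13 libraries, with none of the 13 at 0 in every library. That IL-1β library belongs to the untagged set, so the median change of the ribosomal protein genes in the set is also given without it. The summed level of Flt3 and Cd48, whose products the sort selects against, was 84.2 to 148 in the 4 IL-1β libraries of 20 days and at most 67.6 in the other 10. That of 4 T and NK cell markers was 90.8 to 109 in the same 4 libraries and at most 76.4 elsewhere. Of the 6 markers planned, Cd3e and Cd8a were not among the counted genes, and only the sum is given. The sum of 5 mast cell and basophil markers was 25.9 in IL-1β replicate 3 at 20 days and at most 9.21 in the other libraries. That of 11 erythroid markers was 1490 to 2227 over the 14 libraries. The sum of Kit, Ly6a, Slamf1 and Procr was lowest, at 836 to 1041, in the 3 libraries with the highest core gene levels. It was at least 1276 in the other 11. The part of these markers in the ribosomal protein values was not tested. In RNA from sorted cells in bulk, fewer cells of a kind and less RNA per cell cannot be told apart. Over all genes tested with edgeR's quasi-likelihood test (15466 genes, Benjamini-Hochberg adjusted p under 0.05), 672 were called at 1 day and 1154 at 20 days.

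After 1 day of IL-1β, none of the 86 ribosomal protein genes passed the test, where 4.35% of all genes tested did. In edgeR 1 gene had an unadjusted p under 0.05, and DESeq2 also called 0. The median log2 fold change over the genes was 0.05, with 55 above and 31 below 0, beside a median of -0.01 over all genes tested. The median was 0.07 in the E060216 set and -0.02 in the 10k pair, which has no replicate. None was called in the E060216 set, where 7.45% of all genes were (4 of the 86 at an unadjusted p under 0.05, and 0 by DESeq2), and none differed between these sets, where 0% of all genes did (0 of the 86 at an unadjusted p under 0.05, and 0 by DESeq2).

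The gene with the lowest p at 1 day was Rps27, which encodes a small-subunit protein with a zinc finger. Its level was 232, 189 and 287 CPM with PBS and 166, 159 and 243 with IL-1β, and both 10k libraries were the highest of their group. The groups overlapped because of the set differences. The log2 fold change was -0.33 ± 0.14 (SE) with an adjusted p of 0.23 in edgeR. Rps2, a small-subunit protein at the entrance of the mRNA channel, had the highest estimate. Its levels were 482, 453 and 641 CPM with PBS and 622, 564 and 718 with IL-1β, a log2 fold change of 0.28 ± 0.15 (SE) and an adjusted p of 0.325 in edgeR. Within each naming set the IL-1β values of Rps2 were above the PBS values, and over both sets the groups overlapped.

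After 20 days of IL-1β, the core ribosomal protein genes as a whole had lower estimates, and no core gene passed the test. Of the 86 genes, 85 had a negative log2 fold change, with a median of -0.20 beside -0.00034 over all genes tested. The genes share their libraries and move together, so this one-sidedness is not 85 separate observations. Only Rpl22l1 and Rps19bp1, both outside the core, fell (2 of 86, or 2.33%, against 3.52% of all genes tested that were called lower). That share is near the background. In edgeR 18 of the 86 had an unadjusted p under 0.05. DESeq2 called 4 lower, and 887 of all 15466 genes. With the naming set left out of the fit, edgeR called 0. The groups did not overlap, with every IL-1β library below every PBS library, for Rpl23a, Rpl29 and Rps19bp1 (3 of 86, or 3.49%, against 4.99% of all genes).

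The lower estimates at 20 days came from 1 naming set. In the E061316 set, 71 of 86 genes had a positive log2 fold change, with a median of 0.09, and none was called, where 2.87% of all genes were (3 of the 86 at an unadjusted p under 0.05, and 0 by DESeq2). Both IL-1β libraries were above both PBS libraries for 26 genes (30.2%), near the 26.1% of all genes. In the untagged set the median was -0.47, and 85 of 86 estimates were negative. There edgeR called 50 of the 86 lower (58.1%, against 7.1% of all genes), 46 of them among the 77 core genes. DESeq2 called 72 lower, and 1385 of all 15466 genes. Both untagged IL-1β libraries were below both untagged PBS libraries for 84 of 86 genes (97.7%, against 25.9% of all genes); the exceptions were Rpl24 and Rpl39l, each near or under 1 CPM.

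**Figure D3:**
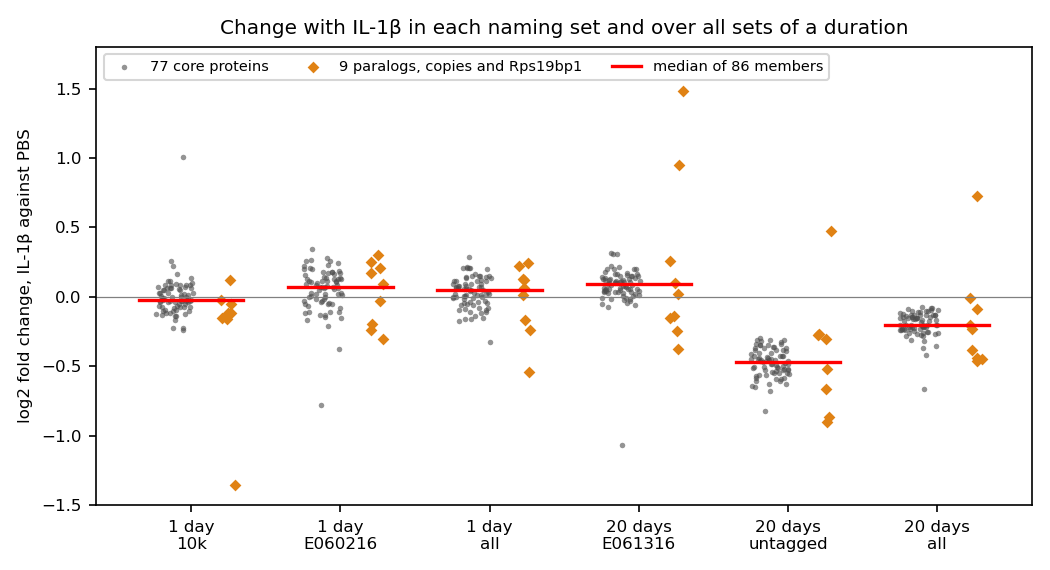
Points are log2 fold changes (IL-1β against PBS, vertical axis) of the 77 core genes (grey) and the other 9 genes (orange) in each naming set and over all sets of a duration; red bars are medians of the 86 genes and 2 points of low genes lie outside the axis. The untagged set stands at a median of -0.47, the E061316 set at 0.09.

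The decrease in the untagged set depended on single libraries. Without PBS replicate 4 at 20 days the median in the set was -0.24, and without PBS replicate 3 it was -0.67. Without IL-1β replicate 3, which carried the neutrophil markers, it was -0.52, and without IL-1β replicate 4 -0.46. Most calls in the set were lost without PBS replicate 4 or IL-1β replicate 3, and all without IL-1β replicate 4. The share of all genes called lower in the set also fell without any one of these libraries. Without PBS replicate 3 that share and the calls on these genes both grew. In each of these fits 1 arm of the set has a single library, which is assumed to vary like the others. Over both sets, the 20-day median was -0.06 without PBS replicate 4, with 61 of 85 estimates negative. Only Rpl22l1 was called there, where 3.72% of all genes were called lower. The median was -0.15 without IL-1β replicate 3 and -0.14 without IL-1β replicate 4. In those fits 0 were called, where 2.35% and 2.16% of all genes were called lower. Leaving out both PBS replicate 4 and IL-1β replicate 3 was an alternative chosen after the data were seen. At 20 days 0 were then called, where 3.14% of all genes were called lower. The untagged median, with 1 library in each arm, was then -0.26.

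The difference between the untagged and the E061316 effects was tested directly. Its median over the 86 genes was -0.56, with 85 estimates negative. None of the 86 passed in edgeR, where 0.168% of all genes did, with 77 at an unadjusted p under 0.05 and the lowest adjusted p at 0.0583, for Rpl15. DESeq2 called 45 of them, and 1244 of all 15466 genes. Without the filter on low counts edgeR called 14, and the count over all genes in that fit is given in the last section. The call on this difference therefore depends on the tool and on the filter. It also depends on single libraries, and the range of medians without them is given in the last section.

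Nor did any ribosomal protein gene differ between the effects at 20 days and at 1 day, where 2.14% of all genes did. The median difference was -0.20, with 81 of 86 negative. In edgeR 8 genes had an unadjusted p under 0.05 and the lowest adjusted p was 0.0982, for Rpl29. DESeq2 called 1 of the 86, and 1182 of all 15466 genes. Between the PBS libraries of 20 days and of 1 day, none of the 86 was called, and 0% of all genes were, with a median difference of 0.05. No gene of the 86 had an unadjusted p under 0.05 in that edgeR fit, and DESeq2 called 0 of them. Duration and naming set cannot be told apart in either comparison.

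Among the proteins of the stalk, the arm of the large subunit that recruits and activates translation factors, Rplp0 forms the base that binds the Rplp1 and Rplp2 dimers. At 20 days Rplp0 had 1050, 1179, 1211 and 1479 CPM with PBS and 1034, 1205, 943 and 924 with IL-1β. The 2 lowest values belonged to the untagged IL-1β libraries, and the E061316 libraries of both treatments overlapped. The log2 fold change of Rplp0 was -0.53 ± 0.11 (SE) in the untagged set, with an adjusted p of 0.0104 in edgeR, and 0.01 ± 0.11 in the E061316 set. All 3 stalk genes were called lower in the untagged set, where 7.1% of all genes were, and none over the 20-day groups as a whole. Without PBS replicate 4 or IL-1β replicate 4 none of the 3 was called in the set, and without IL-1β replicate 3 the calls on Rplp1 and Rplp2 held. Without PBS replicate 4 the log2 fold changes of Rplp0, Rplp1 and Rplp2 in the set were -0.36, -0.35 and -0.28.

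Rpl29, a large-subunit protein whose loss in mice is known to reduce growth, was one of the 3 genes with separate groups at 20 days. Its level was 120, 123, 139 and 177 CPM with PBS, 140 ± 26.2 (SD, n = 4), and 117, 113, 105 and 99 with IL-1β, 109 ± 8.13 (SD, n = 4). The lowest PBS value exceeded the highest IL-1β value by little. The log2 fold change was -0.35 ± 0.11 (SE) with an adjusted p of 0.0786 in edgeR and 0.0288 in DESeq2, the sole core gene that DESeq2 called at 20 days.

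Rpl38, a large-subunit protein known for its part in the translation of Hox mRNAs during mouse development, had 79.6, 85.7, 104 and 138 CPM with PBS at 20 days. With IL-1β it had 78.2, 85.3, 78.3 and 58.6. The E061316 ranges of the treatments overlapped, and the untagged ranges did not. Its log2 fold change was -0.82 ± 0.17 (SE) in the untagged set, with an adjusted p of 0.00958 in edgeR, and -0.02 ± 0.17 in the E061316 set. In the untagged set it was -0.58 without PBS replicate 4 and -1.015 without PBS replicate 3. It was -1.04 without IL-1β replicate 3, and -0.64 without IL-1β replicate 4, which ended the call.

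The 18 measured genes known from Diamond-Blackfan anemia followed the same division. At 20 days none was called and the median log2 fold change was -0.20, from -0.32 (Rpl5) to -0.08 (Rps26). In the untagged set 12 of 18 fell, where 7.1% of all genes were called lower, with a median of -0.48. Most of these calls were lost without any one of PBS replicate 4, IL-1β replicate 3 and IL-1β replicate 4. The median was -0.26 without PBS replicate 4 and -0.68 without PBS replicate 3. It was -0.55 without IL-1β replicate 3 and -0.45 without IL-1β replicate 4. In the E061316 set all 18 estimates were positive with a median of 0.11 and none called. Rps19, the gene most often affected in that disease, had 472, 498, 535 and 720 CPM with PBS at 20 days and 481, 574, 488 and 476 with IL-1β. Only PBS replicate 4 stood clearly above the IL-1β range. Rpl5 and Rpl11, which with the 5S RNA bind Mdm2 and so restrain p53 breakdown, had log2 fold changes of -0.32 ± 0.14 (SE) and -0.23 ± 0.12 at 20 days, with adjusted p of 0.217 and 0.291 in edgeR.

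Rpl22l1 and Rps19bp1 were the genes called over the 20-day groups. Rpl22l1 (chr3:28805436-28807424, plus strand, a protein-coding gene in GENCODE M21) encodes a paralog of Rpl22 that can take its place in the ribosome and is known to be repressed by Rpl22 protein. Its level at 20 days was 72.9, 57.9, 113 and 142 CPM with PBS, 96.5 ± 38.3 (SD, n = 4), and 54, 56, 83 and 77.8 with IL-1β, 67.7 ± 14.8 (SD, n = 4). Within each naming set the IL-1β libraries were below the PBS libraries, while both untagged IL-1β values were above both E061316 PBS values. The log2 fold change was -0.46 ± 0.11 (SE) with an adjusted p of 0.0235 in edgeR, -0.25 ± 0.14 in the E061316 set and -0.67 ± 0.14 in the untagged set. The call was lost without any one of PBS replicate 1, IL-1β replicate 3 and IL-1β replicate 4 of the 20-day groups, at adjusted p of 0.0652 to 0.0893 in edgeR. It was also lost without the naming set in the fit, at an adjusted p of 0.355. An overlapping gene, Gm33051, covers 30.3% of the exon bases of Rpl22l1.

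The ratio of Rpl22l1 to Rpl22 counts showed how far the paralog moved apart from its partner. At 20 days it was 0.532, 0.401, 0.754 and 0.739 with PBS and 0.400, 0.387, 0.633 and 0.630 with IL-1β. At 1 day it was 0.438, 0.430 and 0.419 with PBS and 0.344, 0.349 and 0.412 with IL-1β. The untagged libraries were the highest in either treatment, and within each naming set the IL-1β ratios were below the PBS ratios. The ratio and those below were computed after the fold changes had been seen and are given without a test.

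Rps19bp1 (chr15:80260615-80264315, minus strand), whose product is also known as an activator of the deacetylase Sirt1, shares no 100-base stretch with other genes. Its level at 20 days was 25.6, 28, 27.2 and 35.3 CPM with PBS, 29 ± 4.28 (SD, n = 4), and 18.5, 22.8, 21.7 and 21.8 with IL-1β, 21.2 ± 1.86 (SD, n = 4). All 4 IL-1β values were below all 4 PBS values. The log2 fold change was -0.45 ± 0.12 (SE) with an adjusted p of 0.0394 in edgeR, and -0.38 ± 0.17 and -0.52 ± 0.17 in the E061316 and untagged sets. At 1 day the levels were 28.2, 25.7 and 36.6 CPM with PBS and 32.8, 27.9 and 32.8 with IL-1β, which overlapped. The 20-day call was lost without any one of PBS replicates 2 and 4, IL-1β replicates 1, 3 and 4 of the 20-day groups and IL-1β replicate 2 of the 1-day group, at adjusted p of 0.057 to 0.116 in edgeR.

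**Figure D4:**
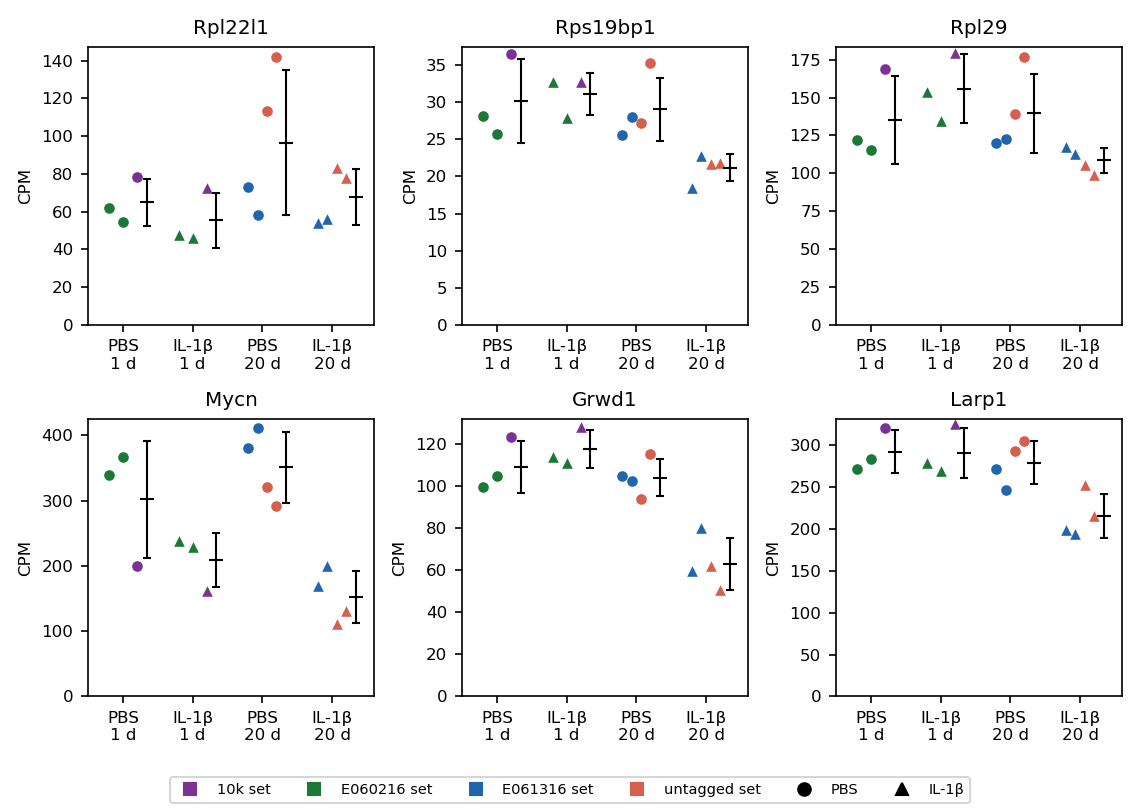
CPM (vertical axes, from 0) in each library of Rpl22l1, Rps19bp1 and Rpl29 (top) and of Mycn, Grwd1 and Larp1 (bottom), by treatment and duration; colours are naming sets, and bars give mean ± SD. Rps19bp1 and Rpl29 separate the treatments at 20 days, and Mycn and Grwd1 do so by a wider gap.

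Rps27l (chr9:66946086-66949516, plus strand) encodes a paralog of Rps27 and is known as a target of p53. Its level at 1 day was 136, 114 and 188 CPM with PBS and 166, 142 and 205 with IL-1β, a log2 fold change of 0.24 ± 0.20 (SE) with an adjusted p of 0.568 in edgeR. At 20 days it was 122, 124, 130 and 187 with PBS and 119, 145, 88.1 and 85.7 with IL-1β. The untagged IL-1β libraries were the lowest of all, and the log2 fold change in that set was -0.87 ± 0.16 (SE) with an adjusted p of 0.00639 in edgeR. Without PBS replicate 4 it was -0.57 ± 0.14, still called (adjusted p 0.0274 in edgeR), and without IL-1β replicate 3 -0.89 ± 0.21 (0.0376). Leaving out IL-1β replicate 4 ended the call (adjusted p 0.0605 in edgeR). In the E061316 set the log2 fold change was 0.10 ± 0.16.

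Set against Rps27, the paralog was relatively more abundant after 1 day of IL-1β. The ratio of Rps27l to Rps27 was 0.586, 0.604 and 0.654 with PBS, 0.615 ± 0.0352 (SD, n = 3), and 1.00, 0.895 and 0.843 with IL-1β, 0.913 ± 0.0812 (SD, n = 3). The groups did not overlap, and the IL-1β ratios were higher in both naming sets. At 20 days the ratio was 0.647, 0.574, 0.535 and 0.544 with PBS and 0.561, 0.612, 0.368 and 0.385 with IL-1β, lowest in the untagged IL-1β libraries. In Rps27, 98.4% of 100-base stretches recur in 2 other genes, and in Rps27l none do.

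Rpl36al (chr12:69182731-69184083, minus strand) encodes a near-identical paralog of Rpl36a. At 20 days it had 74.2, 73.2, 93.6 and 125 CPM with PBS and 67.3, 82.3, 63.8 and 52.9 with IL-1β. The groups overlapped through the E061316 libraries, and the untagged log2 fold change, -0.90 ± 0.16 (SE) with an adjusted p of 0.00479 in edgeR, was the lowest among the called ribosomal protein genes of the set. That untagged change was -0.67 without PBS replicate 4 and -1.10 without PBS replicate 3. It was -1.05 without IL-1β replicate 3, and -0.79 without IL-1β replicate 4, which ended the call. Against Rpl36a, the ratio was 0.715, 0.660, 0.693 and 0.719 with PBS and 0.561, 0.629, 0.530 and 0.532 with IL-1β. All 4 IL-1β ratios at 20 days were below all 4 PBS ratios, in both naming sets. At 1 day the ratios overlapped, at 0.658, 0.702 and 0.777 with PBS and 0.761, 0.687 and 0.778 with IL-1β. The transcript of Rpl36al overlaps Gm49383 over 63.1% of its exon bases, and 59% of its 100-base stretches recur in other genes.

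**Figure D5:**
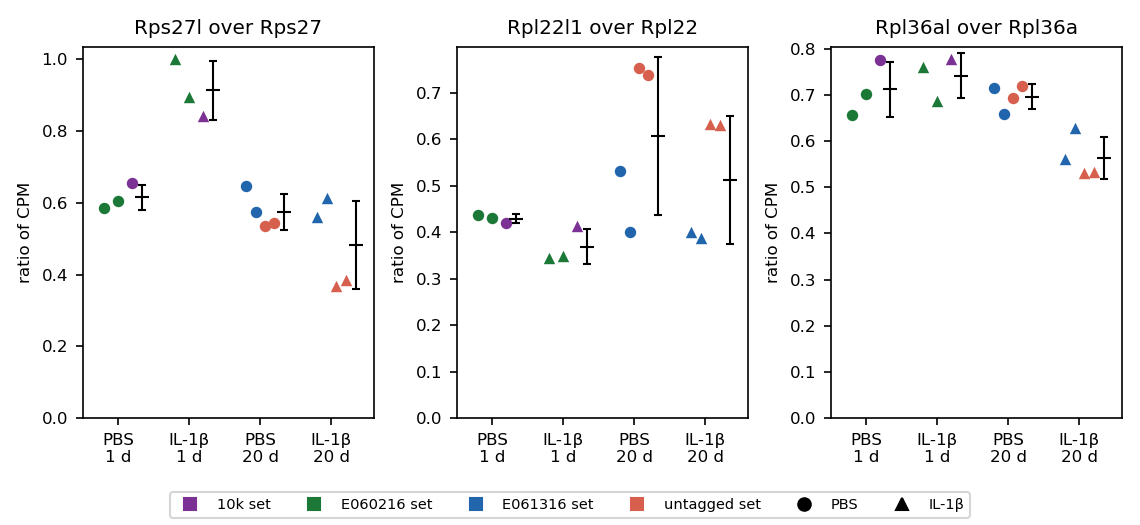
Ratio of the CPM of a paralog to that of its partner (vertical axes, from 0) in each library, by treatment and duration; colours are naming sets, and bars give mean ± SD. The Rps27l to Rps27 ratio is 0.913 after 1 day of IL-1β against 0.615 with PBS, and the Rpl36al to Rpl36a ratio at 20 days is lower in all 4 IL-1β libraries.

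Rpl7l1, a nucleolar paralog of Rpl7 and not a structural protein of the ribosome, was not called over the 20-day groups. Its level at 20 days was 311, 333, 276 and 287 CPM with PBS and 285, 295, 228 and 229 with IL-1β, with a log2 fold change of -0.23 ± 0.07 (SE) and an adjusted p of 0.0713 in edgeR. The gene copies Rps3a2 and Rps4l had log2 fold changes of -0.21 and -0.01 at 20 days, and Rps3a3 and Rpl39l stayed under 1 CPM in every library.

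Genes outside the name rule that act on the ribosome or share its regulation were read from lists. The lists were chosen with earlier results of these data known, so the shares called within them are descriptions. Among other TOP mRNAs, 21 genes for elongation factors, initiation factors and others, 1 rose and 1 fell at 20 days, with a median log2 fold change of -0.14. Of all 15466 genes tested, 609 rose and 545 fell at 20 days. Vim, for the filament protein vimentin, rose by 0.50 ± 0.09 (SE; adjusted p 0.00532 in edgeR). Eef1d, a subunit of the elongation factor that reloads eEF1A with GTP, fell by 0.39 ± 0.11 (adjusted p 0.0426 in edgeR); that call was lost without any one of 8 libraries, at adjusted p of 0.05 to 0.126. In the untagged set 11 of the 21 fell and 1 rose, where 7.1% of all genes were called lower. The median there was -0.36, and most of these calls were lost without IL-1β replicate 4. Without PBS replicate 4 that median was -0.23 and without PBS replicate 3 -0.40. It was -0.33 without IL-1β replicate 3 and -0.35 without IL-1β replicate 4. In the E061316 set 1 rose and 0 fell, where 2.87% of all genes were called. At 1 day Vim alone was called, where 4.35% of all genes were. It rose by 0.67 ± 0.11 (SE, adjusted p 0.0027 in edgeR), and the list had a median of 0.16. In the E060216 set 7 of 21 rose, where 7.45% of all genes were called, with a median of 0.19, and the 10k pair had a median of 0.05. The short respiratory chain genes had 0 of 29 called at either duration, with medians of 0.30 at 1 day and -0.14 at 20 days. In the untagged set 16 of 29 were called lower, where 7.1% of all genes were, with a median of -0.54. Most of these calls were lost without any one of PBS replicate 4, IL-1β replicate 3 and IL-1β replicate 4. The median was then -0.25, -0.59 and -0.48, in that order, and -0.74 without PBS replicate 3. Mitochondrially encoded transcripts had 0 of 8 called at either duration, with medians of -0.39 and -0.29. By set, 3 of 8 fell in the E060216 set (median -0.61), where 7.45% of all genes were called. In the untagged set 3 fell (median -0.70), where 7.1% of all genes were called lower. All of the untagged calls were lost without PBS replicate 4 or IL-1β replicate 4, and most without IL-1β replicate 3. The median was then -0.35, -0.58 and -0.81, in that order, and -0.92 without PBS replicate 3. In the E061316 set none was called and the median was -0.02.

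Several factors that escort ribosomal proteins before assembly fell at 20 days. Of 13 measured dedicated chaperones and assembly factors, 7 fell at 20 days and none rose, where 3.52% of all genes were called lower. The median log2 fold change was -0.32. This list too was chosen with earlier results of these data known, so the share is a description. Rps19bp1 is 1 of the 7 and is also among the called ribosomal protein genes above. At 1 day 0 of 13 were called (0 at an unadjusted p under 0.05 in edgeR). Grwd1, a chaperone of Rpl3, had 105, 102, 93.7 and 115 CPM with PBS at 20 days and 59.6, 80.1, 62.1 and 50.7 with IL-1β. Every IL-1β value was below every PBS value, and Grwd1 fell by 0.73 on the log2 scale ± 0.11 (SE; adjusted p 0.00127 in edgeR). Ltv1, which acts in the assembly of the small subunit, fell by 0.51 ± 0.10 (adjusted p 0.00498 in edgeR), and Ncl, for the nucleolar protein nucleolin, fell by 0.46 ± 0.09 (adjusted p 0.00767). Estimates for these 3 genes were negative in both naming sets: -0.57 and -0.89 for Grwd1, -0.36 and -0.67 for Ltv1 and -0.36 and -0.56 for Ncl, in E061316 and untagged order. Without PBS replicate 4 at 20 days, 6 of 13 were still called, and 1 of 85 ribosomal protein genes, where 3.72% of all genes were called lower. Without both that library and IL-1β replicate 3, 5 of 13 were called, where 3.14% of all genes were called lower. In the untagged set 9 of 13 were called lower, where 7.1% of all genes were. Most of these calls were lost without IL-1β replicate 4. The untagged median was -0.46, and -0.52 to -0.40 without any one library of that set. In the E061316 set alone 0 of 13 were called, with 7 at an unadjusted p under 0.05. The difference in response between chaperones and ribosomal proteins was not tested.

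Transcription factors known at ribosomal protein promoters included the most strongly lowered gene of the lists. Mycn, a Myc-family activator of ribosome biogenesis, had 381, 411, 322 and 291 CPM with PBS at 20 days and 169, 199, 110 and 132 with IL-1β. The treatments were far apart in both naming sets, and Mycn fell by 1.22 ± 0.09 (SE; adjusted p 5.51e-06 in edgeR). At 1 day it fell by 0.50 ± 0.11 (adjusted p 0.0158 in edgeR). Myc had 569, 530, 559 and 578 CPM with PBS at 20 days and 401, 465, 420 and 388 with IL-1β, and fell by 0.42 ± 0.08 (adjusted p 0.00413 in edgeR). Of the 13 factors in the list, 2 fell and none rose at 20 days, where 545 of all 15466 genes fell and 609 rose. The median of the list was 0.04.

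Of 16 regulators of TOP mRNAs and mTORC1, 1 rose and 1 fell at 20 days, where 609 of all 15466 genes rose and 545 fell. Larp1, for the protein that binds the TOP motif, had 272, 246, 293 and 304 CPM with PBS and 199, 194, 252 and 216 with IL-1β. Within each naming set the IL-1β values were below the PBS values, and Larp1 fell by 0.38 ± 0.07 (SE; adjusted p 0.0059 in edgeR). Rps6ka3, for a kinase of the RSK family and no ribosomal protein, rose by 0.63 ± 0.16 (adjusted p 0.0247 in edgeR) at 20 days and by 1.32 ± 0.18 (adjusted p 0.00106) at 1 day. The 20-day call on Rps6ka3 was lost without any one of 4 libraries, PBS replicates 1 and 4 and IL-1β replicates 1 and 3, at adjusted p of 0.0534 to 0.0956 in edgeR. In the p53 list of 6 genes, which includes Rpl5 and Rpl11, none was called at 20 days. The lowest p was that of Cdkn1a, the cell-cycle inhibitor p21, at a log2 fold change of 0.76 ± 0.23 (SE, adjusted p 0.059 in edgeR). In the untagged set Rpl5, Rpl11 and Trp53 were called lower (3 of 6), where 7.1% of all genes were. The list median there was -0.12, and -0.24 to 0.01 without any one library of that set.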

How the data were processed

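The members and lists were chosen with earlier results of these data known. The authors deposited raw counts per gene symbol; per the labels' protocols, RNA was amplified with a SMARTer kit and read single-end. Per the submitters' processing notes, the tools were DESeq2 1.12.3, HTSeq 0.6.1, STAR 2.4.2a, Cuffdiff, Trimmomatic 0.32 and Cufflinks 2.0.2, with build GRCm38.p4; for their roles, the annotation and multiply mapped reads, the sources used here say nothing. From the counts, TMM-scaled CPM and edgeR 4.0.16 quasi-likelihood fits in R 4.3.3 were computed over the 15466 genes that passed filterByExpr (minimum count 10), with Benjamini-Hochberg adjustment at 0.05. The fits of treatment had a naming set term (8 residual degrees of freedom), those by set 6, and the comparison of PBS groups, on group means, 10. DESeq2 1.42.0 was an alternative. The fits were run on simulated counts of independent genes with a common dispersion and changes at 20 days only. Those counts held no shifts between naming sets or libraries, so they say nothing on how the calls depend on either. Named genes were called genes (up to 12), the 5 largest changes each way, the 5 highest and lowest levels, paralogs, stalk and anemia genes, and up to 3 called genes of each list; of these, the text describes those that carry a result. Depth was 21654896 to 29441947 counts. Per the series' design text, each library is a separate pool of mice. The 18 within-group pairs differed by a chi-square of 10.4 to 75.4 per degree of freedom, so none was a duplicate. Positions, lengths and overlaps are from GENCODE M21 (GRCm38), with 1 transcript per gene, the shortest full-length coding one with the best support; promoters are from RefSeq on GRCm38.p6.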

Additional observations from a re-analysis of the deposited data

Results flagged for a closer look

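Among 72 groups of 4 values examined at 20 days, 3 held a library far from the other 3 by Dixon's test, and chance gives about 1 in 20. Rps27l stood at 187 CPM in PBS replicate 4, above the other PBS libraries. The gene copy Rps3a3 stood at 0.934 CPM in IL-1β replicate 1, a level of few counts. The summed level of neutrophil markers stood at 2427 in IL-1β replicate 3. The IL-1β effect differed between 20 days and 1 day for Hnrnpa1, a TOP mRNA for a splicing factor, by -0.75 on the log2 scale (adjusted p 0.0339 in edgeR), for Mycn by -0.72 (0.0275) and for Grwd1 by -0.84 (0.0294). Each of these calls on the difference was lost without at least 1 single library, at adjusted p up to 0.109 for Hnrnpa1, 0.0712 for Mycn and 0.0966 for Grwd1 in edgeR.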

How the results depend on the processing

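Medians over the 86 genes kept their sign at 20 days, in the untagged set and in the differences under every alternative run. At 20 days edgeR called 2 of the 86, and 1 with no filter on low counts. It called 0 with no naming set term, with the replicate block and without IL-1β replicate 3 and PBS replicate 4 together. A narrower name rule left out Rpl22l1, Rps19bp1 and other symbols of those forms. That rule removed both called genes itself, so its 0 is no test of the calls. DESeq2 called 4. Leaving out single libraries gave 0 to 4 in edgeR, where 2.06% to 3.94% of all genes were called lower. For the 20-day minus 1-day effect DESeq2 called 1. For the untagged minus E061316 effect, edgeR called 14 with no filter, DESeq2 called 45, and single omissions gave 0 to 76, with medians of -0.76 to -0.31. In the untagged set, with 50 called, single omissions gave 0 to 81, and omitting both libraries gave 3. Over all genes, edgeR called 672 at 1 day, against 1398 with DESeq2, 290 with no naming set term, 383 with the replicate block and 1132 without both libraries. At 20 days it called 1154, against 1809, 525 and 672 with the first 3 of these, and for the 20-day minus 1-day effect 331, against 1182, 23 and 23. For the untagged minus E061316 effect it called 26, against 41 with RLE size factors, 459 with no filter, 1244 with DESeq2 and 8 without both libraries. In the untagged set it called 1979, against 756 without both, and between the PBS groups 0, against 10 with DESeq2. Replicate numbers did not pair the samples: within naming sets the correlation of deviations was -0.04 for the E060216, 0.14 for the E061316 and 0.0083 for the untagged libraries. The cause of these differences was not tested. Whether changes in genes near 1 CPM, such as Rpl24, could be called at this depth was not tested.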
